A study of Rattus norvegicus with 6 samples.

Results

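The genes described here are 7 surface and structural markers in rat bone marrow mesenchymal stem cells: 5 that mark stromal cells (Thy1, Cd44, Itgb1, Vim and Vcam1) and 2 that mark leukocytes (Ptprc and Cd74). They were chosen by a fixed list of rat Ensembl identifiers, and all 7 were found among the 19458 genes of the deposited table. They describe, library by library, the levels of stromal markers and of blood cell markers beside them. The deposited table gives identifiers without symbols, so the symbols come from that list and were not checked against an annotation.

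The cells were primary wild-type rat bone marrow mesenchymal stem cells, which are stromal cells that adhere to plastic and can form bone, cartilage and fat. One group of 3 libraries came from cells kept for 6 hours on titanium dioxide nanotubes of 100 nm, and the other group of 3 from cells kept for 6 hours on a smooth surface. The labels give no strain, age or passage, and do not say whether libraries of a surface came from separate animals or cultures, so p-values reflect only how far these libraries vary, which could be technical. The library totals were between 16299799 and 17624390 reads, worked out from the FPKM (read fragments scaled by gene-model length and by the library's total). The listed genes held 99.74% to 99.77% of these totals, so they need not be the numbers of reads sequenced.

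Mesenchymal stromal cells are recognised by adhesion and matrix receptors on their surface together with the absence of blood lineage markers. Thy1 (CD90) is a small lipid-anchored surface glycoprotein, Cd44 is the hyaluronan receptor, Itgb1 is the integrin beta 1 subunit through which cells hold on to collagen and fibronectin, Vim is the intermediate filament protein of mesenchymal cells, and Vcam1 is an inducible adhesion receptor that binds integrins on blood cells. Ptprc (CD45) is a tyrosine phosphatase carried by nearly all nucleated blood cells, and Cd74 is the invariant chain that guides class II antigen-presenting molecules in B cells, dendritic cells and macrophages. Cd44, Itgb1 and Vim are also made by many leukocytes, so they are not selective for stromal cells. How selective Thy1 and Vcam1 are in rat bone marrow was not tested. Bone marrow cultures commonly start with blood cells among the stromal cells, which is why the leukocyte markers are read beside the stromal ones.

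The stretches before the start of Vcam1 and Vim are shown because Vcam1 was the stromal member that varied most between libraries and Vim the most abundant one. Each is the 250 bases before the gene's start in RefSeq, build GRCr8, read 5′ to 3′ on the gene's strand. Vcam1 lies on the minus strand and its stretch is chr2:206742784-206743033. Vim lies on the plus strand and its stretch is chr17:81577011-81577260.
Vcam1: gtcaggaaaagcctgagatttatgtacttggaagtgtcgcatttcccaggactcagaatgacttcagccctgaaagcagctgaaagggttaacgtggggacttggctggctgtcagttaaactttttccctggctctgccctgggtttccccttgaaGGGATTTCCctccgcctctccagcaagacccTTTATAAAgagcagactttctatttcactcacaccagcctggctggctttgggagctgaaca
Vim: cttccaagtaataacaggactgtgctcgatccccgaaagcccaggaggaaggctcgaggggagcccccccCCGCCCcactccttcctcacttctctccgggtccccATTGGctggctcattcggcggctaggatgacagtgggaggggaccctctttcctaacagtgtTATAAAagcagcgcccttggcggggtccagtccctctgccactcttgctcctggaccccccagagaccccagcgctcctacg
Capitals mark matches, on either strand, to 4 short motifs that were chosen after these stretches had been read. The NF-kB site was searched as GGGNNTTCC and the GC box as GGGCGG. The TATA box was searched as TATAAA. The box named for its letters CCAAT was searched as those letters. Vcam1 held 1 match to the NF-kB letters, spelled GGGATTTCC and starting 93 bases before the gene's start. It also held TATAAA on the gene's strand, starting 60 bases before the gene's start, and on the other strand an overlapping match starting 62 bases before it. Vim held TATAAA starting 82 bases before its start, and on the other strand the CCAAT letters starting 144 bases and the GC box starting 180 bases before it. Among 33469 rat promoter stretches of the same length, 5.1% held the NF-kB letters, 12.9% held the TATA box, 34% held the CCAAT letters and 30.5% held the GC box. These matches describe the letters only, and binding was not measured.

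The libraries did not group by surface over the whole table. Nanotube library 3 was at least 2-fold apart from smooth library 2 in 86 of the 11865 tested genes on the log2(FPKM + 1) scale, but from nanotube libraries 1 and 2 in 786 and 613 genes. The share of reads held by the 10 most abundant genes was 13.61%, 10.05% and 8.35% for nanotube libraries 1 to 3, against 11.38%, 7.97% and 9.34% for smooth libraries 1 to 3. Results are therefore also given without nanotube library 3 where it bears on them.

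The stromal members together stood far above the leukocyte members in every library. The summed level of the 5 stromal members was 5277, 5283 and 5750 FPKM in nanotube libraries 1 to 3, against 4949, 5473 and 5207 FPKM in smooth libraries 1 to 3. It averaged 5437 ± 271 FPKM on nanotubes and 5210 ± 262 FPKM on the smooth surface (SD, n = 3 libraries each). The 2 leukocyte members together gave 2.80, 0.166 and 0.396 FPKM in nanotube libraries 1 to 3, against 0.705, 0.470 and 0.606 FPKM in smooth libraries 1 to 3. The stromal sum was thus 1881 times the leukocyte sum in nanotube library 1, and between 7018 and 31757 times in the other 5 libraries. In bulk RNA, fewer cells of a type and less RNA per cell cannot be told apart, so these ratios are not cell numbers. Cd44, Itgb1 and Vim are not selective for stromal cells, so the ratios do not give the share of stromal RNA either.

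Vim (ENSRNOG00000018087) was the highest member by mean FPKM, a level per gene length. Its level was 2661, 2275 and 3326 FPKM in nanotube libraries 1 to 3, against 2151, 3124 and 2683 FPKM in smooth libraries 1 to 3. It ranked between 7 and 16 among the 19458 listed genes of a library. The libraries of both surfaces overlapped, with nanotube library 3 and smooth library 2 highest and smooth library 1 lowest.

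Thy1 (ENSRNOG00000006604) came next, at 2013, 2270 and 1619 FPKM in nanotube libraries 1 to 3, against 2159, 1533 and 1792 FPKM in smooth libraries 1 to 3. It ranked between 13 and 30 in a library, so the lipid-anchored glycoprotein and the filament protein both stood among the most abundant transcripts. The surfaces overlapped again, and smooth library 2 and nanotube library 3, the highest for Vim, were the lowest for Thy1. Vim exceeded Thy1 in 5 of 6 libraries. In smooth library 1 both were nearly equal, at 2159 FPKM for Thy1 and 2151 FPKM for Vim, so the order of these neighbours is not separated by their spread. The ratio of Thy1 to Vim was 0.756, 0.998 and 0.487 in nanotube libraries 1 to 3, against 1.004, 0.491 and 0.668 in smooth libraries 1 to 3. Vim and Thy1 together made up between 85.1% and 88.6% of the stromal sum.

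The receptors Itgb1 and Cd44 stood lower, and close to each other. Itgb1 (ENSRNOG00000010966) had 319.9, 450.3 and 449 FPKM in nanotube libraries 1 to 3, against 360.0, 449 and 409 FPKM in smooth libraries 1 to 3. Nanotube library 1 was the lowest of the 6, and the surfaces overlapped. Cd44 (ENSRNOG00000006094) had 280.2, 282 and 339 FPKM in nanotube libraries 1 to 3, against 276, 349.9 and 313 FPKM in smooth libraries 1 to 3. Nanotube library 3 and smooth library 2 were the highest for the hyaluronan receptor. Itgb1 exceeded Cd44 in 6 of 6 libraries, at 1.14 to 1.60 times its level. The coefficient of variation of Cd44 was 11.2% on nanotubes and 11.8% on the smooth surface, and that of Itgb1 was 18.4% on nanotubes and 10.9% on the smooth surface.

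Vcam1 (ENSRNOG00000014333) was far lower and far more variable than the other stromal members. Its level was 2.53, 4.66 and 16.1 FPKM in nanotube libraries 1 to 3, from 179, 323 and 1095 reads. In smooth libraries 1 to 3 its level was 3.61, 17.3 and 9.89 FPKM, from 236, 1161 and 689 reads. Nanotube library 3, smooth library 2 and smooth library 3 stood above the other 3 libraries, and each surface held both high and low libraries. The highest library exceeded the lowest by 6.36 times on nanotubes and 4.78 times on the smooth surface, against at most 1.46 times within a surface for the other 4 stromal members. The exact 95% counting interval was 4.17 to 5.20 FPKM in nanotube library 2 and 9.17 to 10.7 FPKM in smooth library 3, the libraries on either side of that gap. Intervals from reads cover counting error only.

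The spread of Vcam1 was large for its level. Its pooled SD within surfaces was 1.09 on the log2(FPKM + 1) scale, and 0.952% of the 11865 tested genes had a larger one. Of the 4626 tested genes with a mean between 5 and 20 FPKM, a range chosen after the Vcam1 values were seen, 29 had a larger SD, and the median SD of the 4626 genes was 0.187. The other 4 stromal members had an SD within surfaces of between 0.16 (Cd44) and 0.27 (Vim), against a median of 0.20 over all tested genes. The same 3 libraries that were highest for Vcam1 were also the highest for Cd44 and for Vim, and the lowest for Thy1. They were also the 3 in which the 10 most abundant genes took the smallest share of reads, and the part of that in these levels was not tested.

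**Figure D1:**
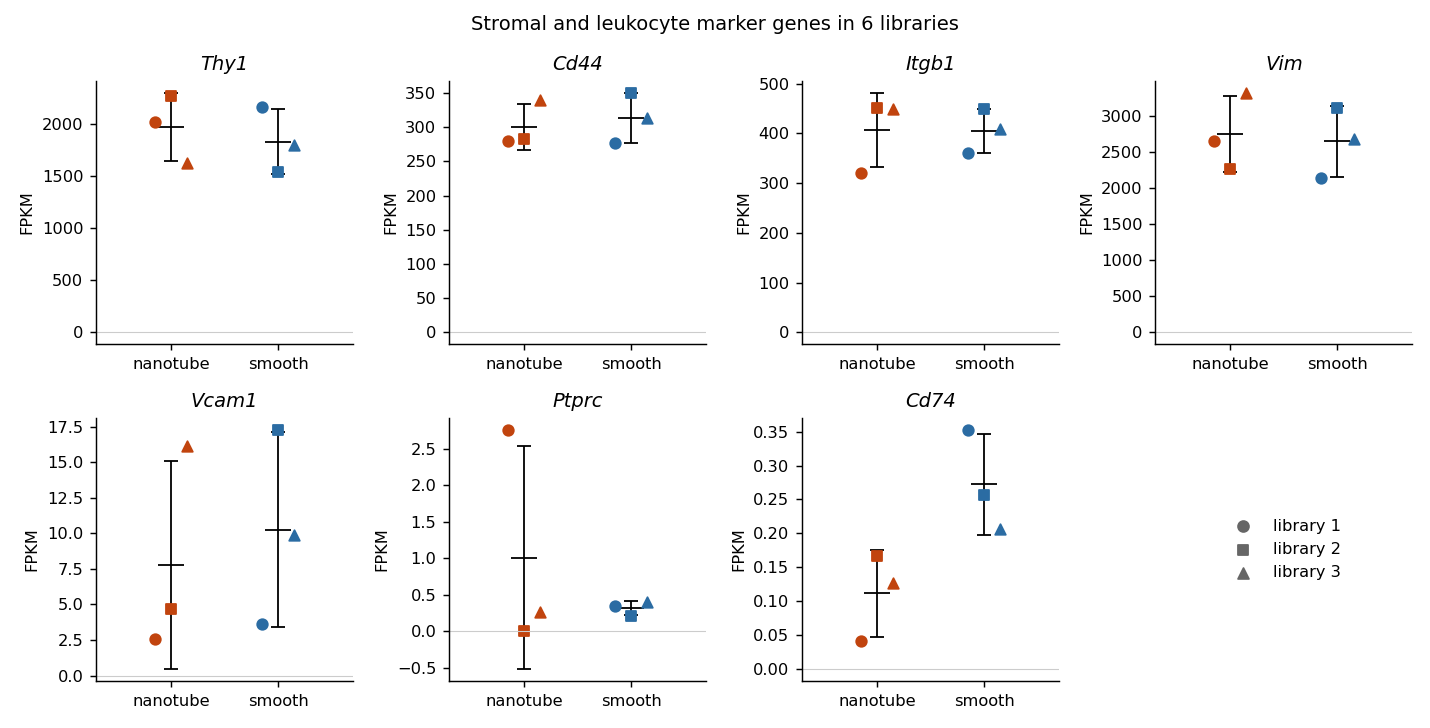
Level of each member in FPKM (vertical axes, linear, 1 panel per gene) for nanotube and smooth libraries. Symbols mark libraries 1 to 3 and bars the mean ± SD of 3 libraries. Stromal members overlap between surfaces, Vcam1 spreads from 2.53 to 17.3 FPKM, and Ptprc stands at 2.76 FPKM in nanotube library 1.

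**Figure D2:**
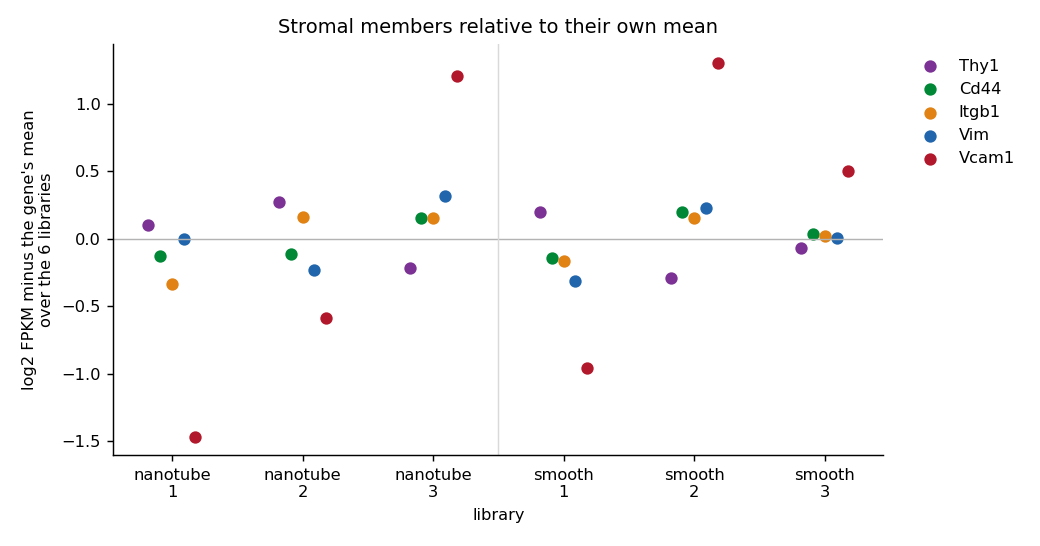
Log2 FPKM of each stromal member minus its own mean over the 6 libraries (vertical axis), by library. Points are single libraries. Vcam1 moves most, and in nanotube library 3 and smooth library 2 Thy1 lies below its mean while Cd44, Itgb1, Vim and Vcam1 lie above theirs.

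The comparison of surfaces asked whether nanotubes changed the stromal markers within 6 hours. None of the 5 stromal members, which were the 5 of 7 members that passed the filter of a mean of at least 1 FPKM, differed between surfaces at an adjusted p of 0.05 (limma on log2(FPKM + 1) with Benjamini-Hochberg adjustment over 11865 genes, n = 3 libraries each). Over all 11865 tested genes 0% (0 genes) were called, with 724 genes (6.1%) at an unadjusted p under 0.05. With voom on the reads, 0 genes were called and 722 had an unadjusted p under 0.05. None of the 5 stromal members was among the 724. That number rested on single libraries: it was 2207 of 11880 genes, with 1 gene called, when nanotube library 3 was left out, and between 235 and 534, with 0 called, when any other library was left out.

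The intervals of the differences were narrow for the abundant members and wide for Vcam1. Thy1 averaged 1967 ± 328 FPKM on nanotubes and 1828 ± 314 FPKM on the smooth surface (SD, n = 3 libraries each). The log2 fold change of Thy1 was 0.11 with a 95% interval of -0.36 to 0.57 (limma adjusted p 0.925). Vim averaged 2754 ± 532 FPKM on nanotubes and 2653 ± 487 FPKM on the smooth surface, a log2 fold change of 0.05 (-0.46 to 0.56, limma adjusted p 0.967). For Itgb1 the means were 406 ± 74.9 FPKM on nanotubes and 406 ± 44.4 FPKM on the smooth surface, and the log2 fold change was -0.01 (-0.43 to 0.41, limma adjusted p 0.994). These intervals do not show that the surfaces were alike, and each stays below a 2-fold difference in either direction.

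Cd44 averaged 301 ± 33.6 FPKM on nanotubes and 313 ± 36.9 FPKM on the smooth surface, with a log2 fold change of -0.06 (-0.39 to 0.28, limma adjusted p 0.946). Vcam1 averaged 7.77 ± 7.31 FPKM on nanotubes and 10.3 ± 6.84 FPKM on the smooth surface. Its log2 fold change was -0.47, and the interval of -2.14 to 1.19 (limma adjusted p 0.916) spans a difference of more than 2-fold in both directions.

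The Vcam1 difference moved with single libraries. Without nanotube library 3 Vcam1 had 3.60 FPKM as the mean of nanotube libraries 1 and 2, and the log2 fold change was -1.12 (-2.60 to 0.36, limma adjusted p 0.377). Without nanotube library 1 it was 0.02 (limma adjusted p 0.999). Without smooth library 2 and without smooth library 1 it was -0.02 and -1.01 (limma adjusted p 0.999 and 0.752). For the other 4 stromal members the log2 fold changes without nanotube library 3 lay between -0.15 (Cd44) and 0.24 (Thy1), with limma adjusted p of 0.559 or more.

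**Figure D3:**
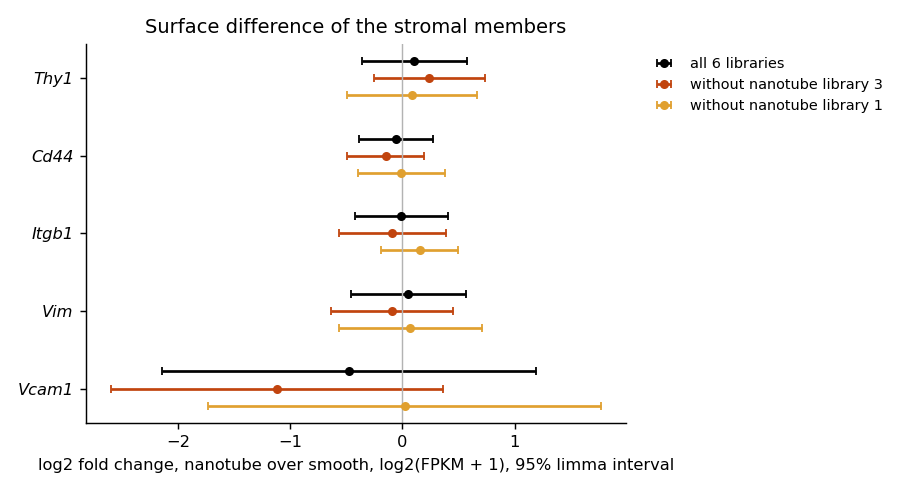
Log2 fold change of nanotube over smooth for the stromal members on the log2(FPKM + 1) scale (horizontal axis) with the 95% limma interval, for all 6 libraries, without nanotube library 3 and without nanotube library 1. Every interval crosses 0, and for Vcam1 the value is -0.47, -1.12 and 0.02 in those settings.

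Ptprc (ENSRNOG00000000655), the leukocyte phosphatase, was low in 5 libraries and stood out in 1. It had 2.76, 0 and 0.269 FPKM in nanotube libraries 1 to 3, from 246, 0 and 23 reads. In smooth libraries 1 to 3 it had 0.352, 0.213 and 0.399 FPKM, from 29, 18 and 35 reads. Nanotube library 1 was 6.93 times the next highest library, and it was 11.3 times the other 5 libraries together by reads (exact 95% counting interval 8.92 to 14.3). The 0 reads of nanotube library 2 allow a level of up to 0.0344 FPKM by the one-sided limit of 3 reads, and the two-sided exact 95% counting interval, used for all libraries, reaches 0.0423 FPKM. Both lie below the lower ends of that interval in the other libraries, the lowest of which was 0.126 FPKM in smooth library 2.

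Cd74 (ENSRNOG00000018735), the class II invariant chain, was near the limit of counting everywhere. It had 0.0408, 0.166 and 0.127 FPKM in nanotube libraries 1 to 3, from 1, 4 and 3 reads, and 0.353, 0.257 and 0.207 FPKM in smooth libraries 1 to 3, from 8, 6 and 5 reads. Nanotube library 1, the highest for Ptprc, had 0.185 times the Cd74 reads of the other 5 libraries together, and the exact 95% counting interval of 0.00451 to 1.125 included 1. Ptprc exceeded Cd74 in 3 of 6 libraries, and the order of the 2 leukocyte members is not separated outside nanotube libraries 1 and 2.

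**Figure D4:**
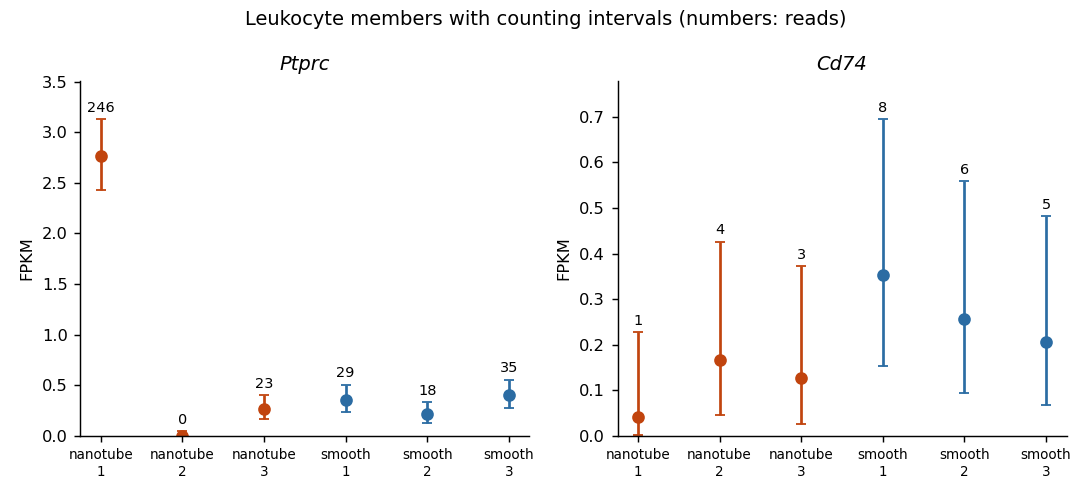
Level of Ptprc and Cd74 in FPKM (vertical axes) in each library, with exact 95% counting intervals and the number of reads above each point. Ptprc has 246 reads in nanotube library 1 and at most 35 elsewhere, while Cd74 has between 1 and 8 reads.

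Neither leukocyte member reached the mean of 1 FPKM over the 6 libraries that the main comparison required, with 0.666 FPKM for Ptprc and 0.192 FPKM for Cd74. Ptprc averaged 1.01 ± 1.52 FPKM on nanotubes and 0.321 ± 0.0969 FPKM on the smooth surface (SD, n = 3 libraries each). In the fit without the filter its log2 fold change was 0.35 (-0.85 to 1.55, limma adjusted p 0.894), and with voom on the reads of all genes it was -0.94 (-5.02 to 3.13, adjusted p 0.909). The direction differed between these fits. Relative to the library totals, nanotube libraries 2 and 3 together had 0.413 times the Ptprc reads of the smooth libraries (exact 95% counting interval 0.248 to 0.663). All 3 nanotube libraries had 3.19 times (2.48 to 4.14). These intervals cover counting error only, not variation between libraries. The lower ratio rested on the 0 reads of nanotube library 2: nanotube library 3 alone had 0.835 times (0.502 to 1.34), and its 0.269 FPKM lay within the smooth range of 0.213 to 0.399 FPKM.

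Cd74 was the single member whose surfaces did not overlap, with all 3 nanotube libraries below all 3 smooth libraries. Of the 19458 listed genes, 6.26% were lower on nanotubes without overlap, so such a pattern is common in this table. Cd74 averaged 0.111 ± 0.0643 FPKM on nanotubes and 0.272 ± 0.0742 FPKM on the smooth surface (SD, n = 3 libraries each). In the fit without the filter the log2 fold change on the log2(FPKM + 1) scale, which understates changes of low genes, was -0.19 (-0.36 to -0.03), at an unadjusted p of 0.028 and a limma adjusted p of 0.851. With voom on the reads of all genes it was -1.27 (-2.58 to 0.05, unadjusted p 0.0566, adjusted p 0.823), so the interval then included 0. In the limma fit without the filter on log2(FPKM + 1), 0 of 19458 genes (0%) were called, and 1015 (5.22%) had an unadjusted p under 0.05. In the voom fit of all genes 0 were called, and 1057 had an unadjusted p under 0.05. By reads the ratio was 0.41 (8 reads on nanotubes against 19 on the smooth surface, exact 95% counting interval 0.155 to 0.98). That interval pools the reads of 3 libraries per surface and covers counting error only, not variation between libraries.

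The summed level of the 2 leukocyte members was small beside that of the stromal members in all 6 libraries. Vcam1 alone exceeded Ptprc in 5 of 6 libraries. In nanotube library 1 Vcam1 had 2.53 FPKM against 2.76 FPKM for Ptprc. The shares that follow are ratios between levels of different genes, and the share of leukocyte RNA was not measured. The leukocyte members made up 0.0531%, 0.00315% and 0.00689% of the summed FPKM of the 7 genes in nanotube libraries 1 to 3, against 0.0142%, 0.00858% and 0.0116% in smooth libraries 1 to 3. With Vim left out of the sum, the share was 0.107% in nanotube library 1 and between 0.00553% and 0.0252% in the other libraries. By reads the share was 0.141% in nanotube library 1 (exact Clopper-Pearson 95% interval 0.124% to 0.160%). It was 0.0244% (0.0172% to 0.0337%) in smooth library 1, the next highest. The mean share of FPKM was 0.0211% ± 0.0278 on nanotubes and 0.0115% ± 0.00283 on the smooth surface (SD, n = 3 libraries each), a difference of 0.00957 percentage points that is smaller than the spread on nanotubes. Without nanotube library 1 the difference was -0.00647 percentage points, the opposite sign, and without nanotube library 3 it was 0.0167.

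Ptprc was part of a wider set of genes high in nanotube library 1. A level at least 5 times that of every other library, with at least 20 reads, was found for 199 genes in nanotube library 1, Ptprc among them. The same rule, chosen after the Ptprc values were seen, gave 7 genes in nanotube library 2 and 0 in nanotube library 3, and 0, 2 and 0 genes in smooth libraries 1 to 3. With 3 times as the limit the counts were 288, 26 and 0 in nanotube libraries 1 to 3, against 2, 3 and 1 in smooth libraries 1 to 3. The 199 genes took 0.50% of the reads of nanotube library 1, and Ptprc was number 71 among them by reads.

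Among the other 5 libraries, nanotube library 2 had the lowest median level of these 199 genes. The high median in nanotube library 1 follows from the rule that picked them. Their median level was 4.13, 0.0541 and 0.160 FPKM in nanotube libraries 1 to 3, against 0.213, 0.157 and 0.182 FPKM in smooth libraries 1 to 3. Nanotube library 2 was the lowest of the other 5 libraries in 100 of the 199 genes, smooth library 2 in 25, and each of the remaining 3 libraries in 8 to 14, while 39 genes had a tied lowest value. How often nanotube library 2 was the lowest over all listed genes was not worked out. Ptprc, which is among the 199 genes, was also lowest there, with 0 reads. Which cell types the 199 genes mark was not tested, because the table gives identifiers without symbols.

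**Figure D5:**
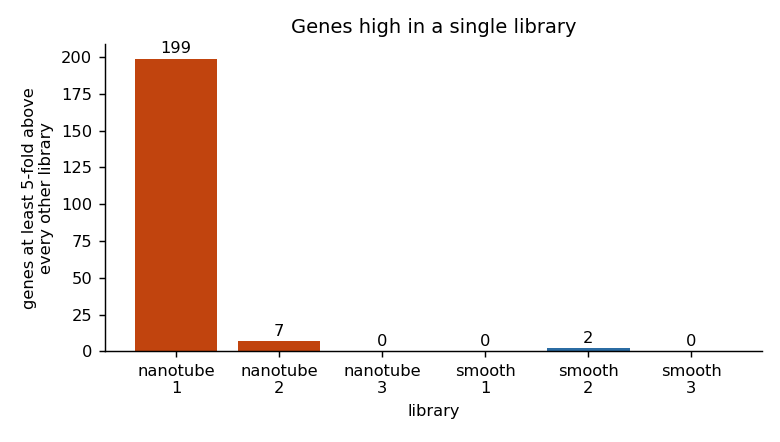
Number of genes (vertical axis) whose FPKM in a library was at least 5 times that of every other library, with at least 20 reads there. Nanotube library 1 has 199 such genes, Ptprc included, against 7 or fewer in any other library.

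Over the 6 libraries, the gene most like Ptprc on the log2(FPKM + 1) scale was ENSRNOG00000003121, with 5.57, 0.569 and 1.06 FPKM in nanotube libraries 1 to 3, against 1.10, 0.897 and 1.32 FPKM in smooth libraries 1 to 3. Like Ptprc it was highest in nanotube library 1 and lowest in nanotube library 2. The gene most like Cd74 was ENSRNOG00000008524, with 4.003, 4.79 and 4.76 FPKM in nanotube libraries 1 to 3, against 6.38, 5.52 and 5.40 FPKM in smooth libraries 1 to 3. Likeness was the highest Pearson coefficient among 11860 genes over 6 points that share library totals, and a close match of this kind is easily found among so many genes. A coefficient of at least 0.95 was reached by 144 genes with Ptprc and by 32 genes with Cd74. With the stromal members it was reached by 112 (Thy1), 619 (Cd44), 174 (Itgb1), 251 (Vim) and 714 (Vcam1) genes. Ptprc had 2.76 FPKM in nanotube library 1 and at most 0.399 FPKM elsewhere, so its coefficients mostly reflect that library.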

How the data were processed

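The authors deposited 1 table of FPKM values, with 1 column per library. The tools HTSeq, HISAT2 2.1.0 and Bowtie 1.0.1 are listed with no role, together with the mouse builds mm10 and GRCm38, per the submitters' processing notes, while the identifiers are rat Ensembl genes. The sources used here do not give the rat build, annotation, strand setting or filters, so reads of overlapping genes may be shared.

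Groups follow the surface in the labels. The last library of each surface carries no number in its title, and the number 3 is only a name. The members and lists were chosen with earlier results of these data known. Marker lists written by symbol were not evaluated, because no table here pairs the identifiers with symbols.

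Whole reads were worked out from the deposited FPKM, which equal reads over gene-model length and library total: reads came out whole for all 19458 genes at a relative tolerance of 1e-09, summing to 99.74% to 99.77% of the totals. A common factor of reads and length can make both too small. Surfaces were compared with limma 3.58.1 (R 4.3.3, mean-variance trend, two-sided) on log2(FPKM + 1) for genes averaging 1 FPKM or more, adjusted over all 11865 genes. Intervals used SciPy 1.17.1. Scripts were tested on simulated data. Named genes are the 7 members and the gene most like each leukocyte member. Promoter stretches are from RefSeq, GRCr8, matched by symbol for 6 of 7 members. Alternatives were other pseudocounts, filters, scaling, voom, replicate blocks and leaving out each library.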

Additional observations from a re-analysis of the deposited data

How the results depend on the processing

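No member passed an adjusted p of 0.05 in any setting in which it was fitted. Of the 82 alternative values of the members' log2 fold changes, 70 kept their direction, but some of these could not turn. On log2(FPKM + 1), dropping the filter, raising it to 5 FPKM or blocking all 6 libraries cannot change a stromal member's estimate. Median-of-ratios scaling turned Itgb1 to 0.047, voom without a filter, an alternative added after the data were seen, turned Ptprc to -0.94, and the 4 numbered libraries turned Vim to -0.075, both with the replicate block and without it. Leaving out 1 library at a time gave log2 fold changes of -0.013 to 0.24 for Thy1, -0.15 to 0.026 for Cd44, -0.093 to 0.15 for Itgb1, -0.092 to 0.18 for Vim and -1.12 to 0.019 for Vcam1. The number of genes changed was 0 to 1 with a library left out, the 1 being without nanotube library 3, and 0 in the other alternatives. On the 4 numbered libraries, 1355 genes had an unadjusted p under 0.05 with the replicate block and 1046 without it, and 0 genes changed in both. Leaving out 1 library moved that count, 724 with all 6, to between 235 (without smooth library 3) and 2207 (without nanotube library 3). The block on all 6 libraries gave 0 changed genes and 801 such genes. Deviations of same-numbered libraries correlated at 0.32, -0.21 and 0.06 across genes, which are not independent replicates, and libraries were not treated as paired. The difference in leukocyte share, 0.00957 percentage points, was 0.0323 from reads and 0.0199 with Vim left out of the stromal sum. It was 0.0128 with Ptprc alone, -0.00322 with Cd74 alone and -0.00647 to 0.0185 with a library left out. The causes of these changes were not tested. The filter left Ptprc and Cd74 out of every fit that used it, including those with a library left out. Each of these genes was fitted in 2 settings, both without the filter, against 17 for each stromal member. Cd74 rested on 8 reads on nanotubes and 19 on the smooth surface, so depth limits what its values show.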
